A study of Mus musculus with 4 samples.

Results

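Lgr5, Lgr6, Lrig1 and Plet1 mark different stem cell compartments of mouse skin epithelium, and their signals were compared between bulge basal cells and the whole epidermis. The members were all probe sets whose platform annotation carries 1 of these 4 symbols: 7 probe sets of 22690 on the array, standing for 4 of 12393 genes with a symbol of their own. Each gene was represented by its probe set with the highest mean log2 signal over the 4 arrays, and the other probe sets are given beside it.

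RNA came from back skin of K14-GFP-actin mice at postnatal day 49, in which a GFP-actin fusion is driven by the keratin 14 promoter of basal keratinocytes, so all cells of both groups carry the transgene. The total group, 2 Affymetrix arrays, held every living GFP-expressing cell. The bulge group, also 2 arrays, held GFP-expressing cells sorted as α6high CD34high. The total cells were not depleted of bulge cells, and no label says whether replicates came from separate mice, so p-values cover the spread among these arrays and nothing beyond it, and that spread may be technical. The titles and the cell population label separate the groups, whereas the cell type label reads the same on all 4 arrays.

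Lgr5 and Lgr6 are receptors with a large leucine-rich ectodomain that bind R-spondins, secreted proteins that keep Wnt receptors on the cell surface by removing the ubiquitin ligases Rnf43 and Znrf3. Lrig1 is a transmembrane protein with leucine-rich repeats and immunoglobulin domains that restrains ErbB and other growth factor receptors, and Plet1 is a surface glycoprotein recognised by the MTS24 antibody. In resting hair follicles, Lgr5 is known from the bulge and hair germ, Lgr6 from the isthmus above the bulge, Lrig1 from the junctional zone near the sebaceous gland, and Plet1 from the isthmus and junctional zone.

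Lgr5 lay higher in the bulge group, and Lrig1, Plet1 and Lgr6 lay lower. On the chosen probe sets, both bulge arrays were above both total arrays for Lgr5 and below them for the other 3 genes. Such separation was common on these arrays, with 18% of the 12393 genes higher and 20.5% lower in this way. In the principal limma fit 0 of the 4 genes passed an adjusted p of 0.05, against 0% of all genes called higher and 0% called lower. With all 4 arrays, Lgr5 was the only member that passed in the limma fit with an intensity trend, which called 0.557% of genes higher and 0.524% lower. The smallest adjusted p of any gene in the principal fit was 0.0729, and unadjusted p-values were under 0.05 for 5.18% of genes in the higher and 5.29% in the lower direction.

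**Figure D1:**
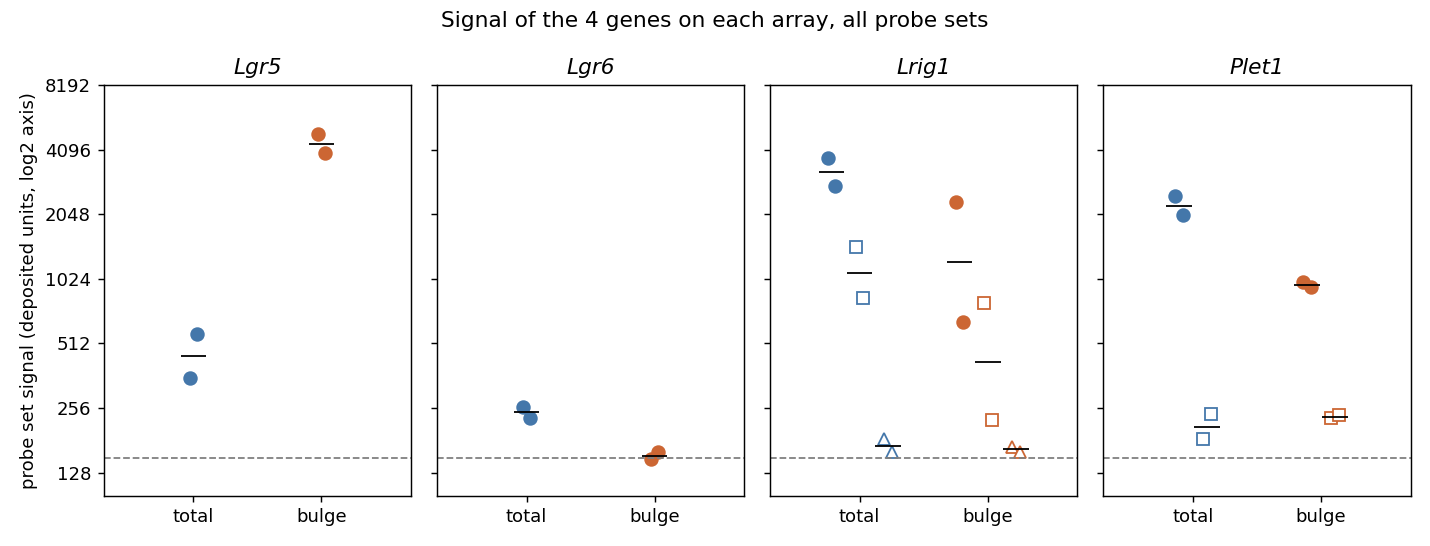
Probe set signal (log2 axis, deposited units) of every probe set of the 4 genes on the 2 total (blue) and 2 bulge (orange) arrays; filled circles are the chosen probe sets, open symbols the others, black bars the geometric means of 2 arrays, and the dashed line the background signal of 150.0. The chosen Lgr5 probe set lies at 3953 or more on the bulge arrays and at 567 or less on the total arrays, while those of Lrig1, Plet1 and Lgr6 lie lower on the bulge arrays.

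The promoter-proximal sequence of Plet1, Lgr6 and Lrig1 is shown as RefSeq sequence of build GRCm38.p6, reading 5′ to 3′ on each gene's own strand. Of the 4 genes, these 3 matched the promoter table. Lgr5 had no entry there, so the 3 genes that lay lower in the bulge group could not be compared with it. Only bases upstream of the outermost annotated start of each gene are printed, and capitals mark matches on either strand to 4 motifs. These are the letters TATAAA of the classical core promoter element, the letters CCAAT bound by nuclear factor Y, the letters GGGCGG bound by Sp family proteins, and CTTTGA, the core that Wnt-responsive TCF and LEF proteins bind. The windows are chr9:50494275-50494524 on the plus strand for Plet1, chr1:135105375-135105526 on the minus strand for Lgr6 and chr6:94700299-94700395 on the minus strand for Lrig1.
Plet1: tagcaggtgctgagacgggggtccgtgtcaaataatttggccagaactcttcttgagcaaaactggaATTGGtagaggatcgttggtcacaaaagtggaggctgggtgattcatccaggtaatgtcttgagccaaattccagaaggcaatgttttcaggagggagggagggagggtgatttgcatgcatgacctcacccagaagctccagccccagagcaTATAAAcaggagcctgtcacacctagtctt
Lgr6: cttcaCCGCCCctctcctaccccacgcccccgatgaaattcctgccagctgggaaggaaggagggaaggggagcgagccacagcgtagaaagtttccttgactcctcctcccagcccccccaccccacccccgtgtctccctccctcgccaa
Lrig1: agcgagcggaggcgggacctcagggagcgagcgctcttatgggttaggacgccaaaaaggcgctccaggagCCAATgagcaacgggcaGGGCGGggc

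In the 250 bases before the annotated start used by the table, the letters TATAAA occurred in Plet1, beginning at position -30, and in 12.4% of all 32851 promoter windows of that length. The letters CCAAT occurred in Plet1 and Lrig1 (33.9% of windows), and the letters GGGCGG in Lgr6 and Lrig1 (32.7%). The TCF and LEF core was in 0 of these 3 windows and in 13.8% of all. Base composition over the same 250 bases, which for Lgr6 and Lrig1 run past the printed part, differed between Plet1 and the other pair. The 250 bases of Plet1 had a GC content of 50.0%, near the median of 52.4% over all windows, and 3 CpG dinucleotides. Those of Lgr6 had 65.2% and 16, and those of Lrig1 71.6% and 26. These matches describe letters and do not show that a factor binds.

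Signals are the deposited probe set intensities on a linear scale, and differences are bulge minus total on the log2 scale with n = 2 arrays per group. A background signal of 150.0 (log2 7.23) was used, the level that 95% of readings from 67 genes for olfactory, vomeronasal and taste receptors did not exceed. The medians of the 4 arrays ran from 123.6 to 145.01, and the number of arrays limits the precision. The median difference over all genes was -0.02.

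Cd34, the surface marker of the gate, had total signals of 844 and 1144 and bulge signals of 15697 and 14034, a difference of 3.92. Itga6, the gene of the α6 integrin, had a lower RNA signal in the group sorted as α6high. It read 5642 and 3491 on the total arrays against 3312 and 1693 on the bulge arrays. The arrays read RNA, and the surface α6 protein that the gate sorts on was not tested. The difference was -0.91 ± 0.52 (SE) and did not pass, with -1.29 and overlapping groups on its other probe set. Of the 2 genes of the gate, Cd34 alone thus had a higher signal in the group sorted for it. The 16 bulge markers, Lgr5 and Cd34 among them, all lay higher on both bulge arrays than on both total arrays, compared with 18% of all genes. Their median difference was 2.07, and 6 of the 16 passed in the trended limma fit, which called 0.557% of all genes higher. The list was chosen with earlier results of these data known, so these counts are not independent evidence of what the sorted cells are.

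Lgr5, represented by 1 probe set, had total signals of 352 and 567 and bulge signals of 4825 and 3953. The groups were far apart, and all 4 values exceeded each of the 268 values of the receptor genes that set the background. The log2 mean was 8.80 ± 0.49 (SD, n = 2) over the total arrays and 12.09 ± 0.20 (SD, n = 2) over the bulge arrays. The difference was 3.29 ± 0.43 (SE; 95% interval 2.19 to 4.38), a 9.77-fold higher signal, with an adjusted p of 0.0867 in the principal limma fit. In the trended limma fit Lgr5 rose with an adjusted p of 0.0297, and after a filter on dim genes with 0.0189, where limma called 1.43% of 7249 genes higher and 1.63% lower. Of the 7249 genes above background in at least 1 group, 43 had a larger positive difference, 0.593% of them. The total signal is that of a mixture, in which fewer cells of a type and less RNA per cell cannot be told apart.

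Replicates of Lgr5 differed less than the groups did. Total replicate 2 was 1.61-fold above replicate 1, and 18.0% of genes above background had a gap at least as large in that group. The bulge replicates were 1.22-fold apart, a gap reached by 73.5% of genes. Leaving out 1 array at a time kept the difference between 2.94 and 3.63. The call of the trended fit was lost without total replicate 1 (adjusted p of 0.175 in limma) and without total replicate 2 (0.130), and it held without bulge replicate 1 (0.0177) or 2 (0.0106). Without either total array that fit called 0 of all genes, so every call of the trended fit given here, of other genes too, needs both total arrays. With the filter on dim genes Lgr5 passed with any 1 array left out. Without a total array, those filtered fits had 59.4 prior against 1 residual degree of freedom, so their calls take little account of the gene's own spread. In all fits with an array left out, the lone array of a group is assumed to vary like the other group, whose 2 arrays give 1 residual degree of freedom, and the rest of the spread is taken from all genes.

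Lgr6, also represented by 1 probe set, had total signals of 259 and 231 and bulge signals of 148 and 159. The groups did not overlap, but the bulge signals sat at the background level, so close to 150.0 that whether each counts as above it depends on how that level is set. Of the receptor gene values, 5.22% exceeded the Lgr6 signal of bulge replicate 1 and 4.48% that of bulge replicate 2, whereas 0% exceeded either total signal. The difference was -0.67 ± 0.37 (SE; 95% interval -1.61 to 0.26), a 1.60-fold lower signal in the bulge group, with an adjusted p of 0.666 in the principal limma fit and 0.643 in the trended one. Its replicates were close, 1.12-fold apart in the total group and 1.08-fold in the bulge group.

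Lrig1 was read by 3 probe sets. The chosen one had total signals of 3721 and 2776 and bulge signals of 2342 and 643. Both bulge values were below both total values, but bulge replicate 1 lay near the total group and bulge replicate 2 far beneath it. The log2 mean was 11.65 ± 0.30 (SD, n = 2) over the total arrays and 10.26 ± 1.32 (SD, n = 2) over the bulge arrays. The difference was -1.39 ± 0.69 (SE; 95% interval -3.15 to 0.37), a 2.62-fold lower signal, with an adjusted p of 0.619 in the principal limma fit and 0.526 in the trended one.

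The second Lrig1 probe set repeated this pattern, array by array. Its signals were 1437 and 833 in the total group, against 789 and 225 in the bulge group, a difference of -1.38. The bulge replicates were -1.81 apart in log2 (replicate 2 minus 1) on this probe set and -1.87 on the chosen one. The remaining Lrig1 probe set stayed near background on all 4 arrays, at 183, 160, 169 and 160, with overlapping groups and a difference of -0.06. The suffix of the chosen probe set (_s_at) is the maker's mark for probes that can match more than 1 transcript, and that of the second (_a_at) for probes common to transcripts of 1 gene.

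How far Lrig1 lay below the total group depended on which bulge array was kept. Without bulge replicate 2 the difference was -0.46 (adjusted p of 0.789 in limma), and without bulge replicate 1 it was -2.32 (limma, adjusted p of 0.188 in the principal fit, 0.0240 in the trended one and 0.00958 with the filter on dim genes), with the spread taken from the total arrays and all genes. The 2 bulge signals were 3.64-fold apart, and 4.41% of genes above background had a gap at least as large between these arrays. Among those 7249 genes, 880 were at least 2-fold lower and 979 at least 2-fold higher on bulge replicate 2 than on replicate 1, compared with 261 and 218 in the total group. Of 9 genes of the Lrig and ErbB list above background in a group, 7 were lower on bulge replicate 2 than on replicate 1, compared with 50.4% of the 7249 genes. Of these, 2 were at least 2-fold lower, Lrig1 itself and Errfi1. The tilt was not particular to this list: 13 of 16 bulge markers and 9 of 13 Wnt transducers and targets were lower too. Of the isthmus, junctional zone and infundibulum genes, 4 of 8 were lower. Suprabasal keratinocyte markers went the other way between the same arrays. Their summed signal was 21028 on bulge replicate 1 and 52414 on replicate 2, against 35093 and 53735 on the total arrays. Krt10 and Lor made up most of these sums, each with overlapping groups. Krt1, of the same list, read 699 and 1118 on the bulge arrays against 8379 and 9221 on the total arrays. The sums thus do not speak for every marker of the list. The control probe sets for Actb gave ratios of 3′ to 5′ signal of 5.14 and 7.96 in the total group, against 5.65 and 10.9 in the bulge group, while those for Gapdh gave 12.2, 17.1, 15.8 and 10.3 in the same order. The part of these values in the Lrig1 result was not tested.

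**Figure D2:**
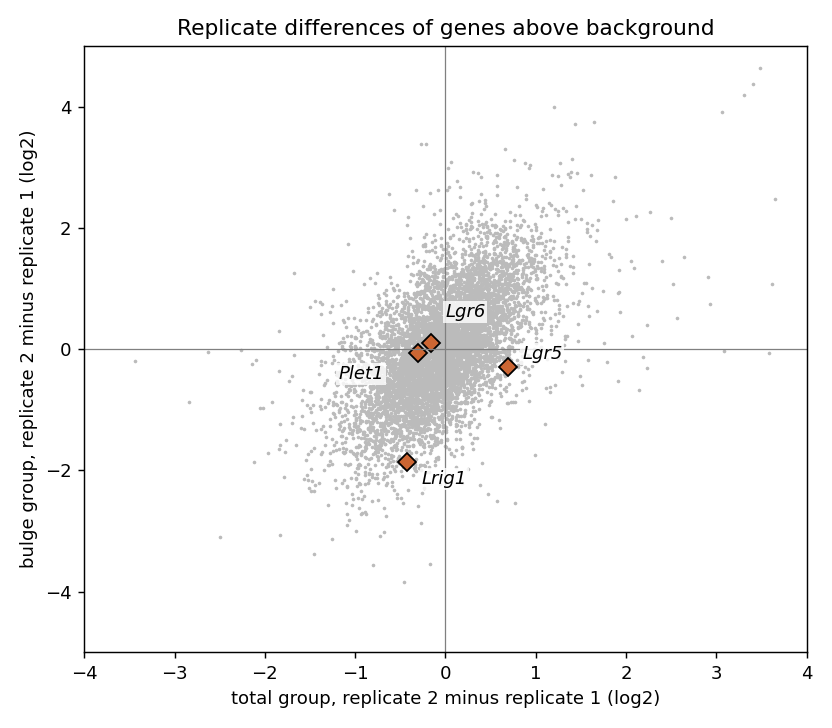
Replicate 2 minus replicate 1 (log2) in the total group (horizontal) and the bulge group (vertical), 1 grey point for each of the 7249 genes above background in a group, 3 of which fall outside the axes, and diamonds for the 4 genes. Lrig1 lies at -1.87 on the bulge axis, while Lgr5, Lgr6 and Plet1 lie between -0.29 and 0.11.

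Plet1 was read by 2 probe sets. The chosen one had total signals of 2499 and 2020 and bulge signals of 987 and 939. The groups were separate, and the bulge replicates were only 1.05-fold apart, a gap that 93.3% of genes above background reached or passed. The log2 mean was 11.13 ± 0.22 (SD, n = 2) over the total arrays and 9.91 ± 0.05 (SD, n = 2) over the bulge arrays. The difference was -1.22 ± 0.38 (SE; 95% interval -2.18 to -0.27), a 2.33-fold lower signal. Its unadjusted p was 0.0215, and its adjusted p was 0.325 in the principal limma fit and 0.186 in the trended one, so that it did not pass over all genes. Leaving out single arrays moved the difference between -1.38 and -1.07.

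The other Plet1 probe set did not share this direction. Its signals were 184 and 239 in the total group, against 230 and 237 in the bulge group, a difference of 0.16 with overlapping groups, and 3 of these 4 values exceeded every receptor gene value. Averaging both probe sets brought the Plet1 difference to -0.53 (adjusted p of 0.751 in limma). RefSeq places a long non-coding gene, Plet1os, across the Plet1 locus, and the files do not say which transcripts either probe set matches.

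**Figure D3:**
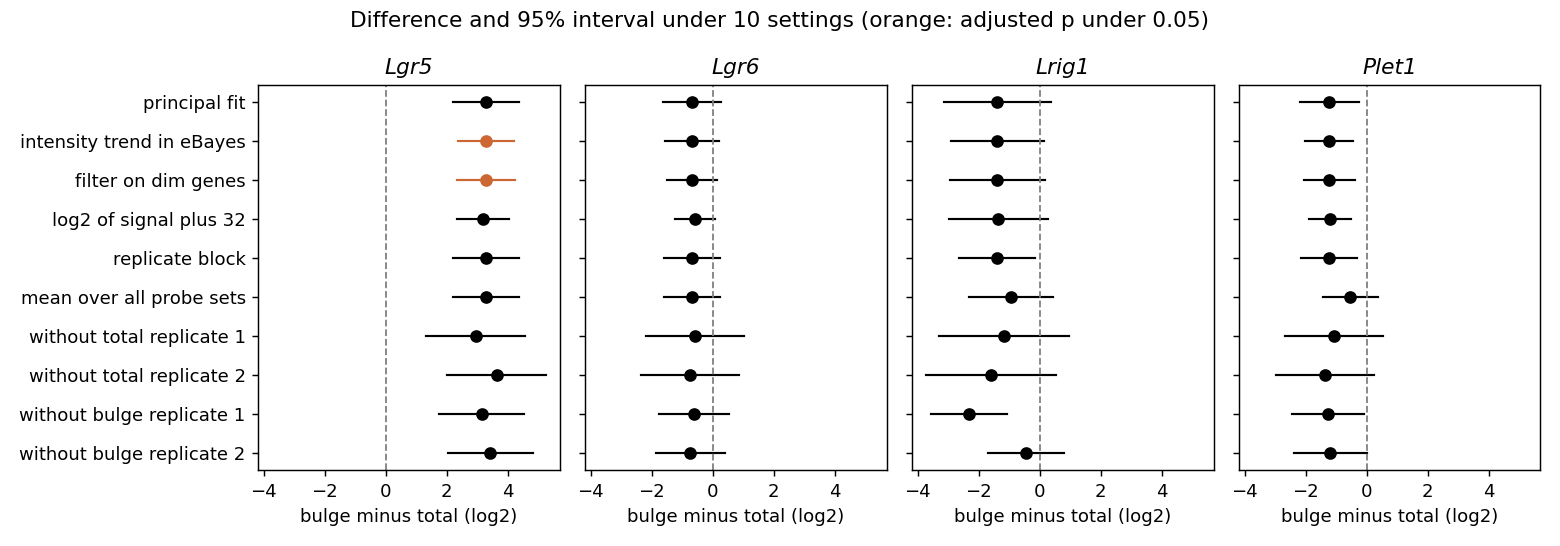
Bulge minus total difference (log2, points) with its 95% interval (bars) for each gene under 10 settings of the limma fit; orange marks an adjusted p under 0.05. Lgr5 stays above 0 throughout and is orange in 2 settings, while the point for Lrig1 lies at -2.32 without bulge replicate 1 and at -0.46 without bulge replicate 2.

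The members were also set against each other as within-array log2 differences between gene pairs, to ask whether their responses differed. The Lgr5 difference exceeded that of Lgr6 by 3.96, that of Lrig1 by 4.68 and that of Plet1 by 4.51, with no overlap of the groups in these 3 pairs. Lgr6 and Plet1 differed by 0.55 without overlap, while Lgr6 and Lrig1 (0.71) and Lrig1 and Plet1 (-0.17) overlapped. The exact two-sided permutation p was 0.333 for the 4 pairs without overlap and 1 for the other 2, and 0.5 and 1 after Benjamini-Hochberg adjustment over the 6 pairs. With 2 arrays per group, 0.333 is the smallest p this permutation test can give, so it could not pass 0.05 whatever the values.

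The genes with the most similar 4-array profiles were found by the root mean square distance between log2 profiles, each centred on its mean, among the 7248 other genes above background in a group. For Lgr5 they were Cmtm3 (distance 0.10), Rapgef3 (0.13) and the Wnt receptor gene Fzd2 (0.16). Fzd2 had total signals of 744 and 1338 and bulge signals of 9967 and 6831, a difference of 3.05 that passed in the trended limma fit (adjusted p of 0.0442). Cmtm3 and Rapgef3 were below background on both total arrays, so their profiles are only partly measured. The 3 nearest to Lgr6 were Adcy3 (0.02), an adenylate cyclase gene, Ppp2r2a (0.03), a phosphatase subunit gene, and Cdkn2c (0.04), a cell cycle inhibitor gene. With its bulge signals at background, the Lgr6 profile is itself only partly measured, and the next brightest probe set of Ppp2r2a gave a difference of -0.15 with overlapping groups.

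For Lrig1 the nearest genes were Tacc3 (0.03), a spindle protein gene, Ints7 (0.08) and Rad23b (0.08), a DNA repair gene. On the chosen probe sets all 3 had their lowest value on bulge replicate 2, which follows from picking them by likeness to Lrig1. Rad23b, for instance, had signals of 2391, 1860 and 1716 on the first 3 arrays and 409 on bulge replicate 2. Tacc3 was below background there, at 51.1, and its other probe sets did not share the drop, with bulge signals of 92.9 and 93.3 on one and 34.3 and 95.9 on the other, all below background. For Plet1 they were Fam3c (0.03), Hsd17b7 (0.03), an enzyme gene of sterol and steroid metabolism, and Syne1 (0.04), a nuclear envelope protein gene. Their differences lay between -1.24 and -1.20, and the other probe sets of Fam3c and Hsd17b7 gave -0.45 and -0.76, the latter with overlapping groups. These distances rest on 4 arrays of 2 groups and describe likeness alone. The differences of the similar genes, Fzd2 included, follow from how they were picked and are no separate evidence on the members.

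Among the ligands and partners of the Lgr receptors, only the receptors themselves were above background. Of 9 genes of the R-spondin and Lgr module, 5 were measured. The ligand gene Rspo1 had signals of 40.0, 20.8, 27.9 and 70.4 on total replicates 1 and 2 and bulge replicates 1 and 2, Rspo2 had 26.5, 20.6, 9.34 and 9.27, and the ubiquitin ligase gene Rnf43 had 140, 98.9, 86.4 and 119. All 3 were below background on all 4 arrays, so no fold is given for them. Lgr4, Rspo3, Rspo4 and Znrf3 were not analysed here. Of the other hormone receptors with leucine-rich ectodomains, Fshr, Tshr and Rxfp2 were below background on all 4 arrays as well.

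Transducers and known feedback targets of Wnt signalling went both ways. Of 19 measured genes, 0 passed in the principal fit, and 1 rose and 3 fell in the trended limma fit. That trended fit called 0.557% of all genes higher and 0.524% lower. Both bulge arrays lay above both total arrays for 2 of the 19 and below for 8, compared with 18% and 20.5% of all genes. Nkd1 among the 2 and Lef1 among the 8 were below background on all 4 arrays, so their separation carries little weight. The list median was -0.29, or -0.60 over the 13 above background in a group. Tcf7l1, a repressive transcription factor of the pathway, rose from 151 and 195 to 871 and 934, a difference of 2.39 (adjusted p of 0.0442 with the trend in limma), and its other probe set gave 2.46.

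The 3 that fell were Tnfrsf19, Smoc2 and Apcdd1, all known from Wnt-active cells elsewhere. Tnfrsf19, a TNF receptor family gene, had total signals of 2633 and 2104 and bulge signals of 85.2 and 121. It fell at least 15.7-fold against the background level (trended limma, adjusted p of 0.0297). Its other 2 probe sets were below background on both bulge arrays, and 1 of them on the total arrays as well. Smoc2, a secreted matricellular protein gene, fell from 3050 and 3066 to 483 and 377, a difference of -2.84. Its other probe set had total signals of 174 and 206 and was below background on both bulge arrays. Apcdd1, an inhibitor of Wnt receptors, fell by a difference of -3.67. The next 2 probe sets gave -3.31 and -3.22, each with 1 bulge array below background, and the remaining one was below background on both bulge arrays. The brightest members had smaller differences that did not pass: -0.29 for Ctnnb1, the β-catenin gene, with overlapping groups, -1.02 for Cd44 and -0.60 for Ccnd1.

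Genes around Lrig1, namely its family, the ErbB receptors and their ligands, included 15 measured genes of 20. In the trended limma fit 0 of the 15 rose and 1 fell, compared with 0.557% and 0.524% of all genes. Both bulge arrays lay above both total arrays for 2 of the 15 and below for 5, compared with 18% and 20.5% of all genes. Lrig1 itself is among the 5, and of the 2, Ereg was below background on all 4 arrays. The list median was -0.32. The ErbB ligand gene Epgn fell from 2475 and 2594 to 329 and 214, a difference of -3.26 (trended limma, adjusted p of 0.0297). Erbb3, a receptor of the family, had total signals of 2849 and 2210 and bulge signals of 1304 and 1231, a difference of -0.99 (adjusted p of 0.326 in the same fit). Errfi1, a feedback inhibitor of the receptors, had signals of 6658, 8797, 11989 and 3249 on the 4 arrays in the order above, with overlapping groups and its lowest value on bulge replicate 2, as for Lrig1. Egfr, named after its values were seen because Lrig1 acts on it, had total signals of 600 and 563 and bulge signals of 610 and 602, a difference of 0.06, with 0.48 on its next brightest probe set. Lrig2 and Lrig3 were not analysed here.

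Lrig1, Plet1 and Lgr6 went the same way as most measured genes of the isthmus, junctional zone and infundibulum. Of the 10 measured genes of that list, 7 were lower on both bulge arrays than on either total array. Over all genes the share was 20.5%. The 7 include these 3 members, whose separation is given above, so the count is no separate evidence on them. The list was also chosen with earlier results of these data known. Gli1 was higher on both bulge arrays, but below background on all 4 arrays. Prdm1, with a difference of 0.23, and Klk10 had overlapping groups, and Klk10 was below background on all 4 arrays as well. The median difference was -1.31, and 1 gene fell in the trended limma fit, which called 0.524% of all genes lower. The 3 members were the smallest of the 7 differences: Krt79, a keratin known from the upper follicle, had -3.46, the defensin gene Defb6 -3.52, Gata6, a transcription factor gene of the sebaceous duct, -2.39 and Cst6, a protease inhibitor gene, -2.33. Gata6 and Cst6 were above background on 1 of 2 bulge arrays.

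**Figure D4:**
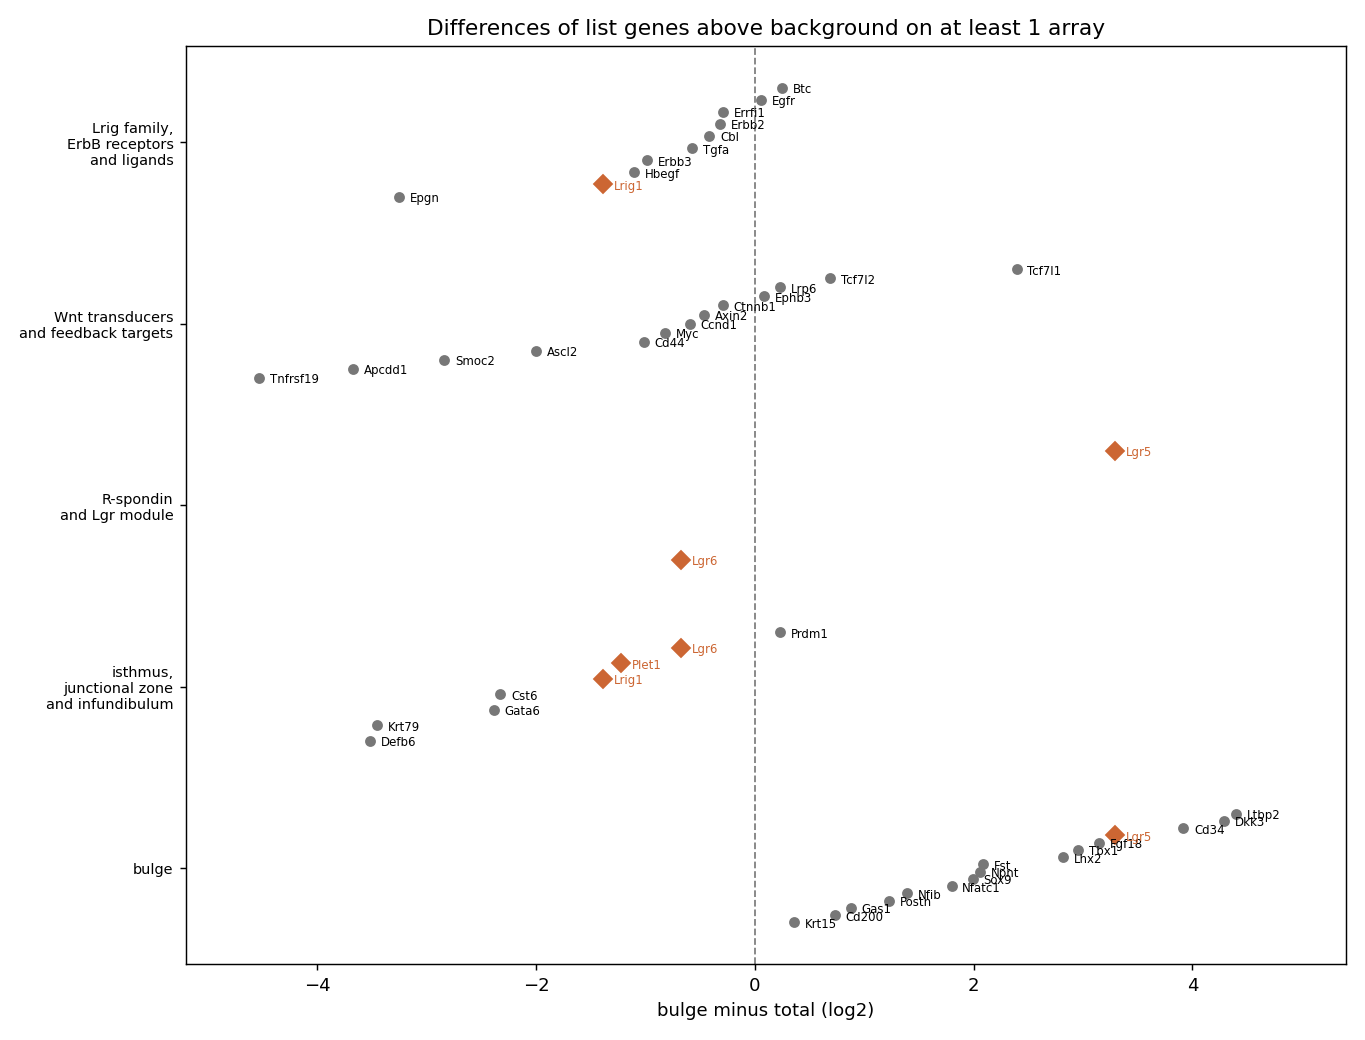
Bulge minus total differences (log2, horizontal axis) of the genes of 5 lists that were above background on at least 1 array, 1 point per gene, with the 4 genes as orange diamonds. Lgr5 lies at 3.29 among the bulge markers, all of which are above 0, and Lrig1, Plet1 and Lgr6 lie between -1.39 and -0.67 among the isthmus and junctional zone genes.

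Markers of other cells also differed between the groups. The summed signal of 7 measured T cell markers was 1800 and 3065 in the total group, against 325 and 485 in the bulge group, with Cd8a and Cd4 below background on all 4. That of 8 Langerhans cell and macrophage markers was 11505 and 12840 in the total group, against 1227 and 1693 in the bulge group, with Lyz2 and Cd68 below background throughout. For 5 sebaceous gland markers it was 4459 and 2816 in the total group, against 919 and 2196 in the bulge group, with Cidea and Pparg below background. Scd1 made up most of that sum, at 3978 and 2356 against 674 and 1615, and its other probe set had overlapping groups. Elovl3 overlapped as well, at 158 and 180 against 111 and 316. For 5 melanocyte markers the summed signal was 1748 and 1562 against 854 and 725, with Tyr below background. Fibroblast markers went the other way in sum: for 6 genes it was 701 and 557 in the total group, against 4335 and 1764 in the bulge group. Col1a2 made up most of it, at 3852 and 1541 on the bulge arrays, and Col3a1, Pdgfra, Dcn and Lum were below background on all 4 arrays. For 4 endothelial markers it was 380 and 265 against 310 and 249, with Pecam1, Cdh5 and Tek below background. For 7 markers of the hair germ, where Lgr5 is also known, it was 480 and 504 against 899 and 1205. Of these, 5 were below background on all 4 arrays, and Cdh3 had overlapping groups. Hoxc13 rose at least 3.85-fold against the background level (trended limma, adjusted p of 0.0442). The part of other cells in the results for the 4 genes was not tested. Basal keratinocyte markers, by contrast, had summed signals of 58982 and 75609 on the total and 69045 and 67012 on the bulge arrays, with overlapping groups.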

How the data were processed

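Per the submitters' processing notes, GCOS, R 2.15.1, affy 1.36 and RMA were used, with no role or order, and 200 ng of RNA was amplified, per the labels' protocols. The deposited values are probe set intensity on a linear scale, with a mean of 500.0 after trimming 2% at each end of every array. Log2 was taken of these values. Of 22690 probe sets, 20380 had 1 platform symbol, of which 20351 were updated by Entrez ID through a RefSeq table of GRCm38.p6; the brightest per gene gave 12393 genes. Two-sided tests were made with limma 3.58.1 in R 4.3.3. The principal fit (lmFit, then eBayes) had the group as its one term, p-values were adjusted by Benjamini and Hochberg's method across the whole table, and calls needed an adjusted p under 0.05. The fits were tested on simulated arrays with independent noise. The principal limma fit recovered 1.79% of changes of 1 in log2, 43.1% of changes of 2 and 99.4% of changes of 4. The trended fit recovered 6.12%, 70% and 99.1%. A difference near 1 would thus rarely pass with these arrays. Alternatives were an intensity trend, robust variances, centring, quantile normalization, a filter on dim genes, probe set means, a pseudocount of 32, a floor at background, a replicate block and each array left out. The trend or the filter combined with the block or with an array left out was added after the data were seen. The text names the members, 3 genes of most similar profile for each, the Lgr and Lrig families, and called or up to 4 bright genes of the other lists. Members and lists were chosen with earlier results of these data known, and lists were not tested. Where both arrays of the dimmer group were below background, the fold is a lower bound against that level.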

Additional observations from a re-analysis of the deposited data

How the results depend on the processing

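All 4 differences kept their direction over 13 planned settings and 10 added after seeing the data, but most of these could not reverse it. The intensity trend, robust variances, the filter and the block leave a difference as it is by construction. With groups that do not overlap, leaving out 1 array cannot change the sign either. The Lgr5 difference of 3.29 passed with the intensity trend (adjusted p of 0.0297) and with the filter on dim genes (0.0189), and its adjusted p ran from 0.0189 to 0.286 over the planned settings of limma. Lgr6, Lrig1 and Plet1 passed in none of these, with lowest adjusted p of 0.326, 0.188 and 0.151. With single arrays left out, in the principal, trended or filtered fit, the differences ran from 2.94 to 3.63 for Lgr5, -0.76 to -0.59 for Lgr6, -2.32 to -0.46 for Lrig1 and -1.38 to -1.07 for Plet1. Leaving out bulge replicate 1 or 2 gave 3.14 or 3.43 for Lgr5, which passed with the trend or the filter. Lrig1 passed, at -2.32, without bulge replicate 1 in both of these fits. The number of genes called, 0 in the principal fit (1297 at an unadjusted p under 0.05), was 134 with the intensity trend, 222 with the filter, 37 with the pseudocount and 5 with the floor at background. With single arrays left out it was 0 throughout in the principal fit, with the trend 0 without either total array and 388 or 350 without bulge replicate 1 or 2, and with the filter 206 or 231 without total replicate 1 or 2 and 743 or 622 without bulge replicate 1 or 2.

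Replicate differences of same-numbered arrays correlated at r = 0.579 over 7249 genes, but the labels give no shared source for the numbers. The replicate block left each difference as it was by construction. It gave limma adjusted p of 0.0573 for Lgr5, 0.291 for Lrig1 and 0.218 for Plet1 with 0 genes called. With the trend as well, 917 genes were called, and Lgr5 (3.29), Lrig1 (-1.39) and Plet1 (-1.22) passed, the latter pair with adjusted p of 0.0313 and 0.0201. With the filter and the block the same 3 genes passed and 1120 genes were called, but limma then gave all 7249 genes the same standard error of 0.375, so these calls take no account of a gene's own spread. Filtered fits without a total array came close to this, with 59.4 prior against 1 residual degree of freedom, which also holds for their Lgr5 calls. Background limits Lgr6 most, since its bulge signals lie at that level.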
